A study of Mus musculus with 23 samples.

Results

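Smad7-deficient cardiac macrophages were compared between infarcted hearts, 3 days after a coronary artery had been tied off for good, and hearts at baseline. The comparison held the 5 libraries labelled MyS7KO day 3 and the 3 labelled MyS7KO baseline, 8 of 23 in the study, and was read across the 16545 genes of 54532 that passed a filter on low counts. MyS7KO mice were C57BL/6 animals with Smad7 fl/fl alleles and LyzM-Cre, a Cre recombinase driven by the lysozyme M promoter, which acts in myeloid cells at large and not in macrophages alone. S7fl/fl littermates carried the same floxed alleles without Cre, and 5 of their day 3 and 3 of their baseline libraries served for the contrast between genotypes, while 4 MyS7KO day 7 libraries served for the later time. Cells were sorted magnetically, first by removing Ly6G+ neutrophils and then by keeping CD11b+ cells, so that monocytes and other CD11b+ leukocytes could pass with macrophages. Poly(A) RNA was sequenced. The labels give no age or sex, do not say that each library came from a separate heart, and do not name the part of Smad7 that Cre removes, so p-values measure the spread between these libraries.

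Smad7 is an inhibitory Smad: it binds activated TGF-beta receptors, recruits the ubiquitin ligases Smurf1 and Smurf2 to them, and so limits the phosphorylation of Smad2 and Smad3. The uninjured mouse heart holds resident macrophages, many of them marked by Timd4, Lyve1 and Folr2 and negative for Ccr2. After coronary occlusion these cells are depleted in the infarct, and circulating Ccr2+ monocytes enter, differentiate into macrophages, engulf dead cells and later take part in scar formation.

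Levels are CPM, read counts scaled to a common library total with TMM factors, and are given in the order of the replicate numbers, from 1 to 5 at day 3 and from 1 to 3 at baseline. A gene was called when the adjusted p of edgeR's quasi-likelihood test, by the Benjamini-Hochberg method over all genes tested, was under 0.05. MyS7KO day 3 libraries held 16982136 to 23884938 counts and MyS7KO baseline libraries 16382079 to 18315308. Mitochondrially encoded genes took 0.939 to 1.70% of counts at day 3 and 3.02 to 3.48% at baseline, and 13740 to 14687 genes at day 3 against 15201 to 15573 at baseline had at least 10 counts. Smad7, the targeted gene, had 19.9, 10.5, 17.5, 12 and 12.9 CPM in MyS7KO day 3 libraries, against 45.6, 48.7 and 19.7 CPM in MyS7KO baseline libraries. Baseline replicate 3 fell within the day 3 range and the other baseline libraries lay above it (log2 change -1.38 ± 0.25 SE, edgeR adjusted p = 7.78e-05). The call ended when baseline replicates 1 and 2 were left out together (log2 -0.41, edgeR adjusted p = 0.273). In S7fl/fl mice Smad7 ranged from 30.4 to 42.0 CPM at day 3 and from 53.1 to 61.2 CPM at baseline, above every MyS7KO library of the same time. Lyz2, whose locus carries the Cre, had 3207, 3088, 2815, 3225 and 3295 CPM in MyS7KO day 3 libraries, against 2761, 2445 and 3349 CPM in MyS7KO baseline libraries, with overlapping groups and no call (log2 change 0.13 ± 0.13 SE, edgeR adjusted p = 0.372). It was called by limma-voom (log2 0.24, adjusted p = 0.0290). Its neighbour Lyz1, a paralogue whose reads may be shared with it, had 76.0, 63.5, 93.3, 58.6 and 83.9 CPM in MyS7KO day 3 libraries, against 222, 330.4 and 475 CPM in MyS7KO baseline libraries, without overlap (log2 change -2.19 ± 0.22 SE, edgeR adjusted p = 3.52e-08). In S7fl/fl mice Lyz2 ranged from 5261 to 6547 CPM at day 3 and from 5085 to 5747 CPM at baseline. Lyz1 there ranged from 9.31 to 11.6 CPM at day 3 and from 66.1 to 141 CPM at baseline. Lyz2 was thus above, and Lyz1 below, every MyS7KO library of the same time. The cause of these genotype differences was not tested.

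The labelled cell type was checked against its markers. The 12 macrophage markers, among them Adgre1, Cd68, Csf1r and the C1q genes, summed to 15761 to 18094 CPM at day 3 and 13013 to 18064 CPM at baseline, and none was at 0. Of the 12 macrophage markers 5 rose and 3 fell. Cd68, a lysosomal glycoprotein, rose (1088 ± 74.3 CPM at day 3 against 386 ± 65.2 CPM at baseline), as did Fcgr1, the high-affinity IgG receptor (316 ± 18.4 CPM at day 3 against 76.6 ± 14.5 CPM at baseline). Csf1r, the receptor for the growth factor that keeps macrophages alive, fell (1216 ± 121 CPM at day 3 against 2513 ± 422 CPM at baseline). Markers of several other cell types were lower at day 3. Of all 16545 genes tested 35.2% were called lower and 30.7% higher, and the counts of markers are to be read beside these shares. Endothelial markers summed to 682 to 1235 CPM at day 3 and 1885 to 3898 CPM at baseline, and 13 of 14 fell and 1 rose. Mural cell markers summed to 217 to 388 CPM at day 3 and 1148 to 1909.6 CPM at baseline, and 10 of 11 fell. Cardiomyocyte markers summed to 19.2 to 39.3 CPM at day 3 and 87.8 to 113 CPM at baseline, and 11 of 13 fell. NK cell markers summed to 17.3 to 28.9 CPM at day 3 and 57.3 to 96.9 CPM at baseline, and 10 of 11 fell. B cell markers summed to 51.0 to 70.2 CPM at day 3 and 205 to 254 CPM at baseline, and 6 of 11 fell. Fibroblast markers overlapped, with 1015 to 1759 CPM at day 3 and 1355 to 2685 CPM at baseline. Of the 14 markers 8 fell and 3 rose, among them Cthrc1 (5.69 ± 0.780 CPM at day 3 against 0.289 ± 0.144 CPM at baseline) and Postn (77.8 ± 23.7 CPM at day 3 against 34.3 ± 9.40 CPM at baseline), both of activated fibroblasts. Neutrophil markers summed to 224 to 311 CPM at day 3 and 181 to 252 CPM at baseline. Ly6g was at 0 in all 5 day 3 libraries. Of 14 neutrophil markers tested 2 rose, the collagenase Mmp8 (41.8 ± 9.29 CPM at day 3 against 1.79 ± 0.508 CPM at baseline) and the decoy receptor Il1r2 (91.7 ± 3.64 CPM at day 3 against 22.8 ± 3.21 CPM at baseline), and 7 fell, among them S100a8 and S100a9. T cell markers summed to 88.3 to 129 CPM at day 3 and 25.6 to 37.9 CPM at baseline. Of 8 T cell markers tested 2 rose and 3 fell. The sum was carried by Il7r (101 ± 17.6 CPM at day 3 against 7.89 ± 0.548 CPM at baseline), while Trac, a T cell receptor chain, fell (0.552 ± 0.198 CPM at day 3 against 1.35 ± 0.629 CPM at baseline). Baseline replicate 3 had the lowest endothelial, mural and fibroblast sums of the baseline group. In bulk RNA, fewer cells of a type and less RNA per cell cannot be told apart. The part of these shifts in the changes described below was not tested beyond leaving libraries out.

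**Figure D1:**
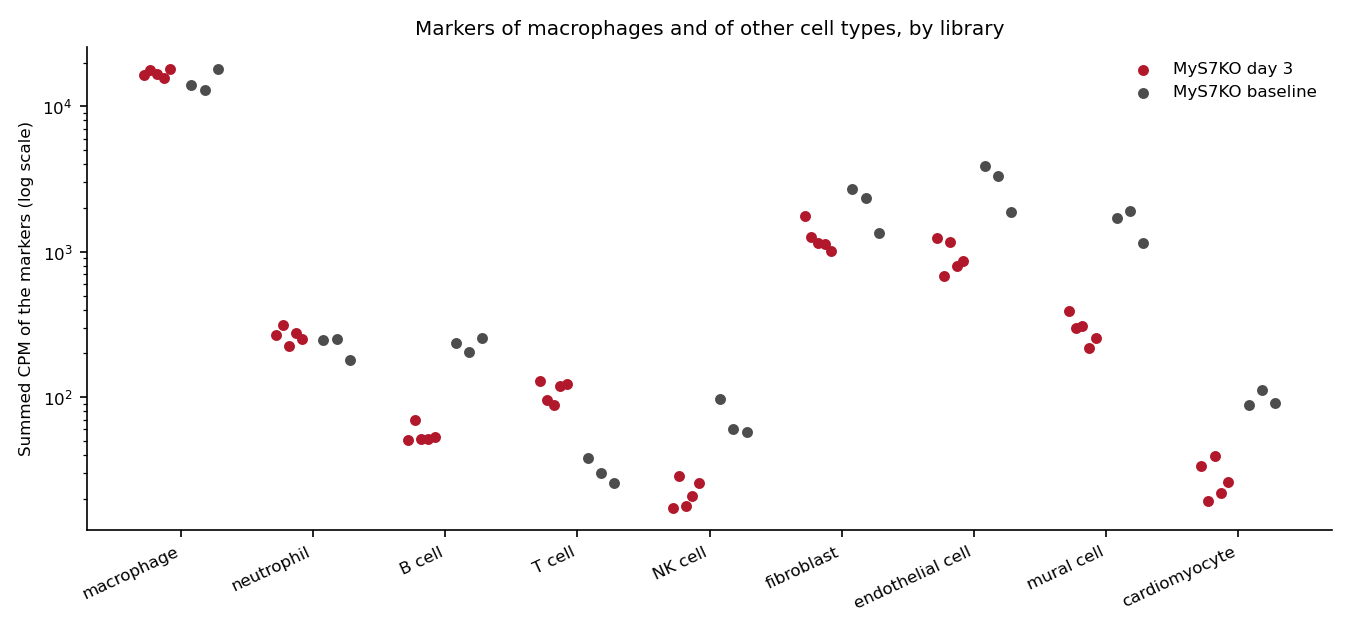
Summed CPM (log scale) of the markers of 9 cell types in each of the 5 MyS7KO day 3 libraries (red, left) and 3 MyS7KO baseline libraries (grey, right). Macrophage sums overlap, whereas the endothelial, mural, cardiomyocyte, NK cell and B cell sums are lower in every day 3 library and the T cell sums higher.

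The comparison of day 3 with baseline asked how Smad7-deficient macrophages of the heart change in the inflammatory phase of infarction. Most listed genes of lysosomes, glycolysis, respiration, the proteasome and cell division rose, and most listed genes of resident cardiac macrophages, of the TGF-beta pathway and of the immediate early response fell, with counts given below. EdgeR called 5081 genes higher, 30.7% of the 16545 tested, and 5823 lower, 35.2%. Counts of list members are to be read beside these shares. With a change of at least 2-fold these were 2020 genes (12.2%) higher and 3819 (23.1%) lower, and with at least 16-fold 76 higher and 181 lower. The groups did not overlap in CPM for 10059 genes (60.8%), a share beside which each mention of separate groups is to be read. With baseline replicate 3, the library with the fewest stromal reads, as the only baseline library and assumed to vary like the other groups, 3683 genes were called higher and 3530 lower. Among protein-coding genes 4685 of 13839 rose and 5002 fell, and among long noncoding RNA genes 144 of 1333 rose and 496 fell (median log2 change -0.56, against -0.10 over all genes tested). On the first principal component of the 1000 most variable genes, which held 90.7% of their variance, day 3 libraries lay at -38.0 to -27.4 and baseline libraries at 49.6 to 59.3.

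Spp1, which encodes the secreted phosphoprotein osteopontin, had the largest rise by the rule used to name genes. It had 12523, 10766, 10174, 10642 and 12291 CPM in MyS7KO day 3 libraries, against 26.7, 31.2 and 41.3 CPM in MyS7KO baseline libraries (log2 change 8.41 ± 0.37 SE, edgeR adjusted p = 8.83e-14). Its mean was 341-fold higher. By the authors' FPKM, which divides by gene length, Spp1 ranked 2 among nuclear protein-coding genes of at least 300 bases at day 3 (6831 ± 620.3 FPKM) and 1939 at baseline (20.1 ± 4.54 FPKM). Only Fth1, the ferritin heavy chain, ranked higher at day 3. Arg1, the arginase that turns arginine into ornithine and urea, had 786, 597, 734, 655 and 431 CPM in MyS7KO day 3 libraries, against 2.17, 1.64 and 2.82 CPM in MyS7KO baseline libraries (log2 change 8.17 ± 0.77 SE, edgeR adjusted p = 3.70e-08). Every day 3 library of these genes lay more than 100-fold above every baseline library. Gpnmb, a lysosomal glycoprotein of phagocytes, had 1365, 1209, 1104, 1488 and 1596 CPM in MyS7KO day 3 libraries, against 15.5, 16.8 and 13.7 CPM in MyS7KO baseline libraries (log2 change 6.46 ± 0.36 SE, edgeR adjusted p = 6.48e-12). Pdpn (podoplanin, a ligand of the platelet receptor CLEC-2) averaged 389 ± 57.3 CPM at day 3 against 4.77 ± 0.840 CPM at baseline. F7 (coagulation factor VII, which starts clotting with tissue factor) averaged 66.0 ± 8.23 CPM at day 3 against 1.13 ± 0.364 CPM at baseline. Cd5l, a scavenger-type protein that macrophages secrete, averaged 46.4 ± 9.58 CPM at day 3 against 1.12 ± 0.835 CPM at baseline. Adam8, a membrane metalloprotease of leukocytes, had 1386, 1104, 1167, 1227 and 1207 CPM in MyS7KO day 3 libraries, against 48.2, 48.9 and 37.9 CPM in MyS7KO baseline libraries (log2 change 4.76 ± 0.19 SE, edgeR adjusted p = 3.09e-14). The other genes of the 12 largest rises were Syngr1 (log2 6.11 ± 0.26), Stra6l (4.95 ± 0.34), Tnc, which encodes the matrix glycoprotein tenascin C (4.95 ± 0.56), Cxcl3, a neutrophil-attracting chemokine (4.82 ± 0.57), and Saa3, an acute-phase serum amyloid protein (5.53 ± 1.37). Saa3 had 53.4, 54.4, 36.1, 165 and 25.4 CPM in MyS7KO day 3 libraries, against 2.84, 1.20 and 0.297 CPM in MyS7KO baseline libraries. Day 3 replicate 4 stood far above the others, and limma-voom did not call it (log2 5.00, adjusted p = 0.0585). The log2 change was 4.87 without day 3 replicate 4 and 6.52 without baseline replicate 1, called in both.

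The 12 largest falls by the same rule held lectins, secreted proteins and receptors of macrophages. Cd207 (langerin, an endocytic C-type lectin) had 0.497, 0.177, 0.238, 0.187 and 0.719 CPM in MyS7KO day 3 libraries, against 49.0, 101 and 46.4 CPM in MyS7KO baseline libraries. Pla2g2d (a secreted phospholipase) averaged 0.357 ± 0.190 CPM at day 3 against 64.4 ± 13.4 CPM at baseline. Cxcl13 (a B cell-attracting chemokine) averaged 0.374 ± 0.346 CPM at day 3 against 44.0 ± 28.5 CPM at baseline. In these 3 genes at least 1 day 3 library held 3 counts or fewer, so that their fitted log2 changes (-7.48, -7.43 and -6.93) rest on few day 3 counts. Retnla, a secreted resistin-like protein of alternatively activated macrophages, had 0.298, 2.31, 2.32, 1.06 and 1.02 CPM in MyS7KO day 3 libraries, against 161, 149 and 264 CPM in MyS7KO baseline libraries (log2 change -7.08 ± 0.56 SE, edgeR adjusted p = 4.19e-09). Il1rl1 (ST2, the receptor for interleukin 33) had 3.08, 3.19, 3.22, 1.93 and 1.80 CPM in MyS7KO day 3 libraries, against 52.0, 50.9 and 75.5 CPM in MyS7KO baseline libraries (log2 change -4.48 ± 0.25 SE, edgeR adjusted p = 6.39e-12). The groups did not overlap in any of the 12, which the naming rule required of the largest rises and falls alike. Chp2 (log2 -5.27 ± 0.24), the collagen prolyl hydroxylase P3h2 (-4.71 ± 0.30) and Cmah, which makes the sialic acid Neu5Gc (-4.65 ± 0.25), were also among them, as were Lyve1, Timd4, Cd163 and Hspa1b, described below.

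**Figure D2:**
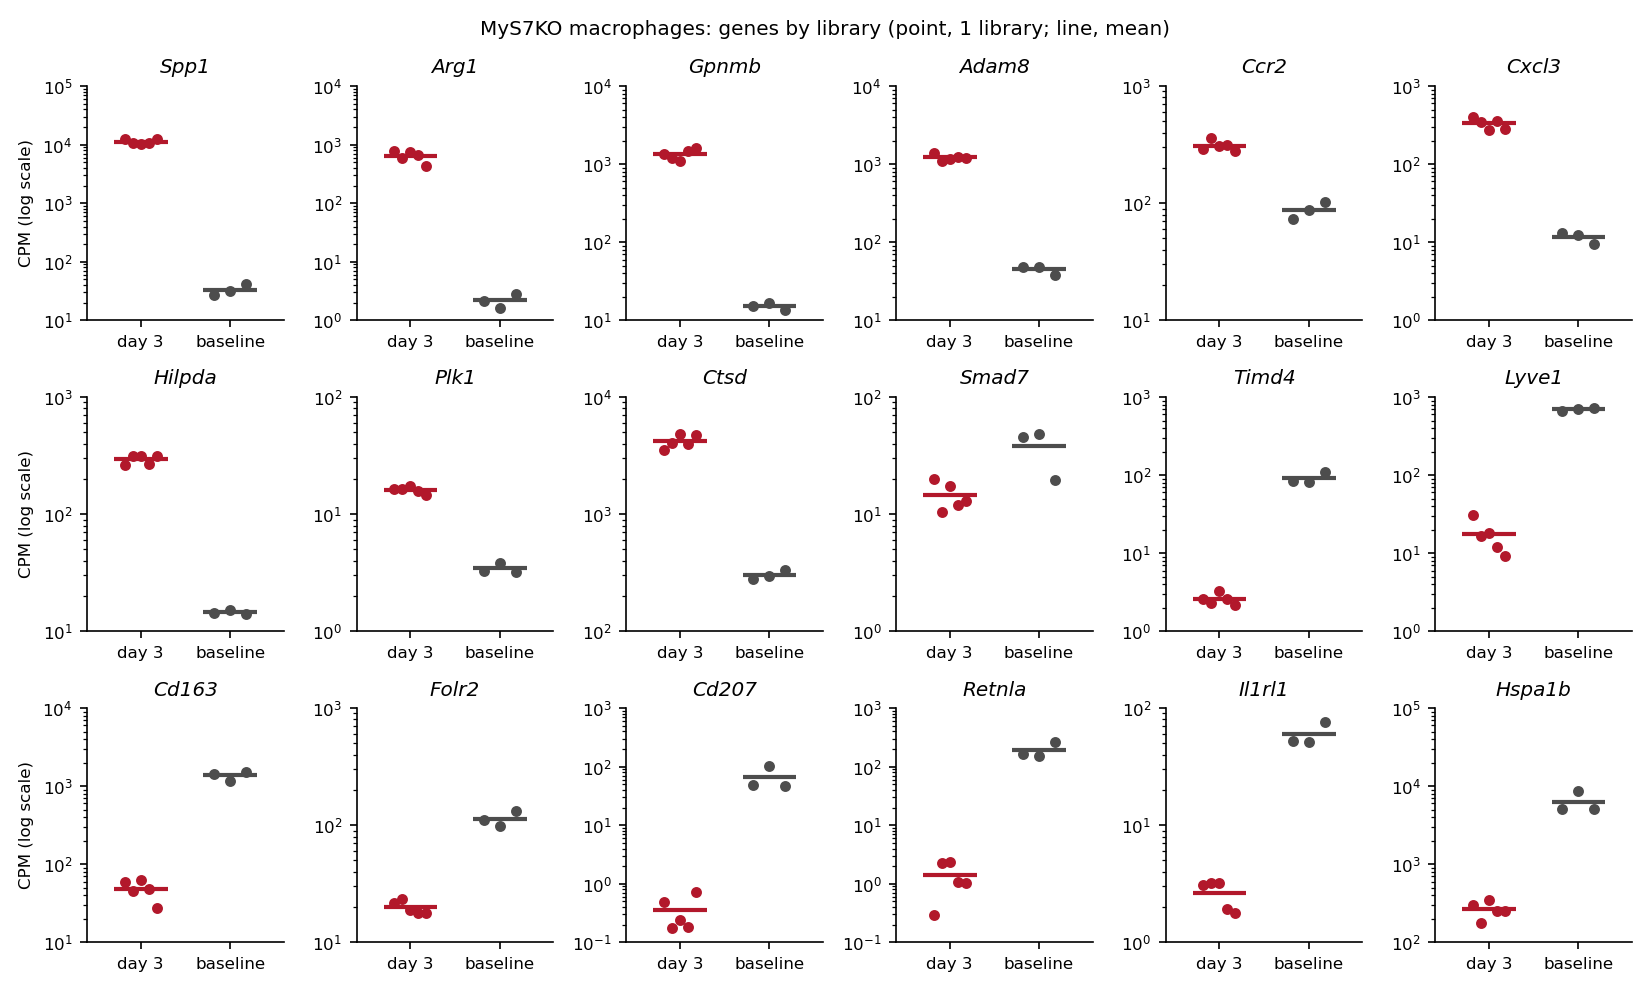
CPM (log scale) of 18 genes in each of the 5 MyS7KO day 3 libraries (red, left) and 3 MyS7KO baseline libraries (grey, right), with group means as lines. The groups are separate in every panel but that of Smad7, where baseline replicate 3 (19.7 CPM) lies within the day 3 range. Separate groups were required by the rule that named the genes with the largest changes.

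Of the genes of resident cardiac macrophages, 20 of 26 fell and 2 rose, with a median log2 change of -2.12 (all genes: -0.10). Lyve1, a hyaluronan receptor, had 30.7, 16.6, 18.4, 12.2 and 9.23 CPM in MyS7KO day 3 libraries, against 652, 697 and 734 CPM in MyS7KO baseline libraries (log2 change -5.31 ± 0.47 SE, edgeR adjusted p = 1.75e-08). Timd4, a phosphatidylserine receptor by which resident macrophages bind dying cells, had 2.58, 2.31, 3.34, 2.62 and 2.16 CPM in MyS7KO day 3 libraries, against 85.3, 80.9 and 108 CPM in MyS7KO baseline libraries (log2 change -5.14 ± 0.32 SE, edgeR adjusted p = 7.97e-11). Cd163, the scavenger receptor for haemoglobin bound to haptoglobin, had 59.6, 45.0, 63.8, 48.3 and 27.8 CPM in MyS7KO day 3 libraries, against 1420.3, 1172 and 1538 CPM in MyS7KO baseline libraries (log2 change -4.81 ± 0.34 SE, edgeR adjusted p = 5.89e-10). Folr2, a folate receptor, had 21.7, 23.4, 18.8, 17.8 and 17.9 CPM in MyS7KO day 3 libraries, against 111, 98.6 and 132 CPM in MyS7KO baseline libraries (log2 change -2.51 ± 0.12 SE, edgeR adjusted p = 1.34e-13). In all 4 genes the highest day 3 library lay below the lowest baseline library, which the naming rule required of Lyve1, Timd4 and Cd163. Day 3 replicate 5 was the lowest library in Lyve1, Timd4 and Cd163. Vsig4, a complement receptor of resident macrophages (log2 -4.39 ± 0.43), the lectins Cd209f (-6.72 ± 0.55) and Cd209g (-6.29 ± 0.60), the mannose receptor Mrc1 (-1.18 ± 0.17) and the transcription factor Maf (-1.38 ± 0.14) fell too. Pf4, a chemokine that platelets and resident macrophages both hold, rose (log2 0.56 ± 0.19), as did Fcrls (0.83 ± 0.19). Only 1 member was called higher without baseline replicate 1, without replicate 2 or without libraries of mixed sex, and none with replicate 3 as the only baseline library. Cx3cr1, the fractalkine receptor (log2 0.25 ± 0.20), Stab1 (0.06 ± 0.14) and Siglec1 (-0.14 ± 0.20) were not called.

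Of the genes of classical monocytes and of macrophages derived from them, 16 of 22 rose and 0 fell (median log2 2.29). Ccr2, the receptor by which monocytes leave the marrow and enter tissue, had 291, 362, 310.0, 313 and 277 CPM in MyS7KO day 3 libraries, against 73.0, 88.3 and 103 CPM in MyS7KO baseline libraries (log2 change 1.82 ± 0.17 SE, edgeR adjusted p = 4.72e-09). Thbs1, the matricellular protein thrombospondin 1 that can free TGF-beta from its latent complex, had 9089, 7171, 5834, 8509 and 5821 CPM in MyS7KO day 3 libraries, against 400.4, 469.9 and 191 CPM in MyS7KO baseline libraries (log2 change 4.36 ± 0.28 SE, edgeR adjusted p = 2.53e-11). Cd300lf, an inhibitory receptor for phosphatidylserine and ceramide, averaged 116 ± 10.4 CPM at day 3 against 7.58 ± 1.30 CPM at baseline (log2 change 3.94 ± 0.19 SE, edgeR adjusted p = 2.94e-13). Groups of the 3 genes did not overlap, beside 60.8% of all genes tested with separate groups. Chil3, a chitinase-like protein of monocytes (log2 4.23 ± 0.92), coagulation factor F10 (4.02 ± 0.36), the receptor tyrosine kinase Met (3.71 ± 0.59) and Ly6c2, the antigen of classical monocytes (2.43 ± 0.48), rose. Fpr1 (log2 1.02 ± 0.61) and Fpr2 (0.30 ± 0.48) were not called. Among 20 chemokine and chemoattractant receptors 9 rose and 2 fell (4 with a replicate block). Ccr7, by which cells move to lymphatic vessels and nodes, had 35.7, 50.5, 52.2, 50.8 and 62.6 CPM in MyS7KO day 3 libraries, against 7.07, 7.25 and 6.39 CPM in MyS7KO baseline libraries (log2 change 2.87 ± 0.19 SE, edgeR adjusted p = 2.51e-11). Ltb4r1, the leukotriene B4 receptor, rose (log2 2.81 ± 0.31), while the chemokine scavenger Ackr3 (-1.52 ± 0.45) and the chemerin receptor Cmklr1 (-0.69 ± 0.08) fell.

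Of 25 tested genes of alternative activation and lipid-associated macrophages, 23 rose and 2 fell (median log2 2.03; 1 further member was not tested). Besides Spp1, Arg1 and Gpnmb those that rose included Fabp5, a fatty acid carrier (log2 4.71 ± 0.26), Trem2, a lipid-sensing receptor (2.68 ± 0.18), Plin2, which coats lipid droplets (2.03 ± 0.16), and Lgals3, the galactose-binding lectin galectin 3. Lgals3 had 1840.0, 1784, 2081, 1974 and 2456 CPM in MyS7KO day 3 libraries, against 147, 168 and 189.9 CPM in MyS7KO baseline libraries (log2 change 3.59 ± 0.20 SE, edgeR adjusted p = 1.45e-12). Retnla and Fabp4, which endothelial cells also express, fell; only 1 of these falls was called without baseline replicate 1 and with replicate 3 as the only baseline library. Genes of the lysosome and its proton pump rose in 30 of 36 and fell in 0 (median log2 1.16). Ctsd, the aspartic protease cathepsin D, had 3509, 4054, 4824, 3939.8 and 4712 CPM in MyS7KO day 3 libraries, against 279.7, 296 and 332 CPM in MyS7KO baseline libraries (log2 change 3.80 ± 0.19 SE, edgeR adjusted p = 3.03e-13). Naglu, which removes N-acetylglucosamine from heparan sulphate, had 93.5, 111, 94.1, 94.9 and 112 CPM in MyS7KO day 3 libraries, against 25.5, 26.4 and 29.8 CPM in MyS7KO baseline libraries (log2 change 1.89 ± 0.13 SE, edgeR adjusted p = 4.79e-11). The proteases Ctsl (log2 2.85 ± 0.20), Ctsk (2.31 ± 0.33) and Ctsb (1.93 ± 0.15), the saposin precursor Psap (1.90 ± 0.17) and the pump subunit Atp6v0d2 (2.48 ± 0.34) rose as well. Tfeb, a transcription factor that drives lysosomal genes, was not called (log2 0.09 ± 0.16), and its relatives Mitf (0.88 ± 0.15) and Tfec (1.11 ± 0.24) rose.

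TFEB and MITF bind the E-box CACGTG. This palindrome was present, within 250 bases before to 50 bases after a RefSeq start site (GRCm38.p6), in 10 of the 27 lysosomal genes that had a promoter entry (37.0%), against 8.09% of 27025 genes with an entry and 11.2% of those tested. A match is only a description of the letters. The promoters of Ctsd, with 2 matches, on the minus strand at chr7:142387778-142388077, and of Naglu, with 1, on the plus strand at chr11:101069844-101070143, are shown because these genes had the lowest p in the list, with CACGTG in capitals:
Ctsd: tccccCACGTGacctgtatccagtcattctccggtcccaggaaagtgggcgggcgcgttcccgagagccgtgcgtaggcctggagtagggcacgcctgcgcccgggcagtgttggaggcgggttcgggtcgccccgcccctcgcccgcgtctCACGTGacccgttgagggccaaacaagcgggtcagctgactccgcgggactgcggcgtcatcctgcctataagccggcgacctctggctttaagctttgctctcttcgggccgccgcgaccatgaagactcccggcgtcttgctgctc
Naglu: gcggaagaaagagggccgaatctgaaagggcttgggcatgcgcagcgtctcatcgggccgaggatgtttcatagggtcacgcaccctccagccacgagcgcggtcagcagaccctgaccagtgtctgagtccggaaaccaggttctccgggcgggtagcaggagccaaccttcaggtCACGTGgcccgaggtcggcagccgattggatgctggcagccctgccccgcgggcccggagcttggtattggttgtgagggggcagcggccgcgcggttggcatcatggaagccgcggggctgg

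Glycolytic and hypoxia-induced genes rose in 27 of 32 and fell in 3 (median log2 1.62). Hilpda, which blocks lipolysis at lipid droplets and is a target of hypoxia-inducible factors, had 265, 312, 312, 269 and 315 CPM in MyS7KO day 3 libraries, against 14.4, 15.3 and 14.2 CPM in MyS7KO baseline libraries (log2 change 4.33 ± 0.22 SE, edgeR adjusted p = 7.36e-13). Pkm, the pyruvate kinase that ends glycolysis, had 2649, 2458, 2438, 2295 and 2347 CPM in MyS7KO day 3 libraries, against 416, 392 and 383 CPM in MyS7KO baseline libraries (log2 change 2.62 ± 0.14 SE, edgeR adjusted p = 1.67e-12). Hif1a, the oxygen-regulated transcription factor, averaged 296 ± 40.6 CPM at day 3 against 80.0 ± 5.19 CPM at baseline (log2 change 1.89 ± 0.15 SE, edgeR adjusted p = 4.37e-10). All 3 genes were higher in every day 3 library than in any baseline library, beside 60.8% of all genes tested with separate groups. Pgk1 (log2 2.95 ± 0.17), Pgam1 (2.69 ± 0.15), Ldha, which makes lactate (1.96 ± 0.14), and its exporter Slc16a3 (2.64 ± 0.18) rose, as did the glucose carrier Slc2a1 (1.81 ± 0.19) and Egln3, which hydroxylates HIF proteins (2.84 ± 0.47). The vasodilator peptide gene Adm (-1.68 ± 0.25), Pfkfb3, which raises an activator of phosphofructokinase (-1.30 ± 0.10), and P4ha2 (-0.67 ± 0.24) fell. The pentose phosphate pathway and NADPH oxidase list had 10 of 13 members higher and 1 lower (0 with baseline replicate 3 as the only baseline library). Pgd and Tkt, of the oxidative and non-oxidative branches, rose (log2 1.87 ± 0.11 and 1.39 ± 0.09), whereas Cybb, the catalytic oxidase subunit, fell (-0.40 ± 0.12). Nuclear genes of the respiratory chain and TCA cycle rose in 42 of 44 with none called lower (median log2 0.97). Mdh2, a TCA cycle dehydrogenase, averaged 186 ± 14.2 CPM at day 3 against 75.9 ± 0.710 CPM at baseline (log2 1.29 ± 0.10). Cs, citrate synthase, averaged 179.6 ± 8.35 CPM at day 3 against 89.9 ± 2.75 CPM at baseline (log2 1.00 ± 0.08). Over the same libraries the mitochondrially encoded share of counts was lower at day 3, as given above.

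The core of the hypoxia response element, ACGTG on either strand (CACGT on the other), was present in the promoters of 23 of 30 genes of the glycolysis and hypoxia list with an entry (76.7%), against 21.8% of all genes with an entry and 28.3% of those tested. ACGTG lies within CACGTG, so that a palindromic E-box also counts. Hilpda and Pkm had the lowest p in this list; each has a further start site whose window holds no match. Shown in capitals is ACGTG or CACGT in Hilpda, on the plus strand at chr6:29272376-29272675, and in Pkm, on the plus strand at chr9:59656977-59657276:
Hilpda: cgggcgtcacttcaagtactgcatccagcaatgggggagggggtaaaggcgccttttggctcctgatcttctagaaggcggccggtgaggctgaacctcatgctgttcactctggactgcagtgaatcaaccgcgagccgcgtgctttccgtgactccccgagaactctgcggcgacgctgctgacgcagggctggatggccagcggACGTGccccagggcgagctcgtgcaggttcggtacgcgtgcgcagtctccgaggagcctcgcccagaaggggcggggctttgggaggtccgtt
Pkm: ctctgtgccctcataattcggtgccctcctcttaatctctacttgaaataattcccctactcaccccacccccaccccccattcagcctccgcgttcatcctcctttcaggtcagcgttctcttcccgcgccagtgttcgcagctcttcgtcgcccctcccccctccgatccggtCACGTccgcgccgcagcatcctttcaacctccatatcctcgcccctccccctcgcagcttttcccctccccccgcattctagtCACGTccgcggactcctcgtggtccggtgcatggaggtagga

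Cell cycle genes rose in 44 of 48 and fell in 2 (median log2 1.19). Plk1, the kinase that drives cells into and through mitosis, had 16.4, 16.6, 17.4, 15.9 and 14.5 CPM in MyS7KO day 3 libraries, against 3.30, 3.87 and 3.22 CPM in MyS7KO baseline libraries (log2 change 2.22 ± 0.26 SE, edgeR adjusted p = 1.05e-07). Cdca3, part of the ubiquitin machinery that permits mitotic entry, had 28.0, 29.0, 34.2, 31.5 and 36.6 CPM in MyS7KO day 3 libraries, against 6.04, 6.81 and 8.18 CPM in MyS7KO baseline libraries (log2 change 2.18 ± 0.24 SE, edgeR adjusted p = 9.16e-08). The lowest day 3 library was several-fold above the highest baseline library in both genes. Ccne1, of the transition into S phase (log2 2.39 ± 0.28), Rrm2, which makes deoxynucleotides (2.1 ± 0.25), Cdk1 (2.02 ± 0.30), Mcm5 of the replicative helicase (1.66 ± 0.19) and the proliferation marker Mki67 (1.02 ± 0.24) rose. Ccnd1 (log2 -0.50 ± 0.15) and Kif23 (-0.59 ± 0.21) fell, 1 of them without a call with no filter, when baseline replicate 2 or 3 was left out, and with replicate 3 as the only baseline library. Genes for ribosome production in the nucleolus rose in 18 of 28 and fell in 2, or 4 by limma-voom. Rrp12 (log2 1.67 ± 0.14) and Bop1 (1.10 ± 0.10) were among those that rose. Cytosolic ribosomal protein genes rose in 47 of 50 with none called lower (median log2 0.70), among them Rps2 (log2 1.23 ± 0.13) and Rplp0 (1.03 ± 0.12); 23 were called with baseline replicate 3 as the only baseline library. These genes have many processed copies in the genome, with which reads can be shared. Proteasome genes rose in 30 of 31 with none lower (median log2 1.17). Psmd2, of the regulatory particle, had 318, 317, 314, 299 and 318 CPM in MyS7KO day 3 libraries, against 118, 108 and 119 CPM in MyS7KO baseline libraries (log2 change 1.44 ± 0.09 SE, edgeR adjusted p = 4.55e-12). The catalytic subunit Psmb6 averaged 232 ± 17.5 CPM at day 3 against 59.3 ± 6.89 CPM at baseline. Among catalytic subunits the constitutive Psmb5 (log2 1.89 ± 0.16) and the immunoproteasome forms Psmb8 (0.87 ± 0.19) and Psmb10 (0.93 ± 0.17) rose too, and the immunoproteasome form Psmb9 was not called (0.35 ± 0.25).

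The cell cycle homology region element TTTGAA, at which the DREAM complex represses genes of late cell cycle phases, was present on either strand in 18 of the 39 cell cycle genes with an entry (46.2%), against 20.2% of all genes with an entry and 14.8% of those tested. CCAAT, which is often found next to it, was present in 31 of 39 (79.5%), against 41.1% of all genes with an entry and 42.3% of those tested. Plk1, on the plus strand at chr7:122159185-122159484, and Cdca3, on the plus strand at chr6:124829926-124830225, had the lowest p of this list and each hold TTTGAA, in capitals, at position 30 after the start site:
Plk1: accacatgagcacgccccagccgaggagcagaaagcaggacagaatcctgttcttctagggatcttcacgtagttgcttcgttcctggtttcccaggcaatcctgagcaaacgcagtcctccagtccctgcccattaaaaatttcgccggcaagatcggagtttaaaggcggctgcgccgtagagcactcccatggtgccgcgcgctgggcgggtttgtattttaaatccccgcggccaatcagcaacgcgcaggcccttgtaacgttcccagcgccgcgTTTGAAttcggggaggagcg
Cdca3: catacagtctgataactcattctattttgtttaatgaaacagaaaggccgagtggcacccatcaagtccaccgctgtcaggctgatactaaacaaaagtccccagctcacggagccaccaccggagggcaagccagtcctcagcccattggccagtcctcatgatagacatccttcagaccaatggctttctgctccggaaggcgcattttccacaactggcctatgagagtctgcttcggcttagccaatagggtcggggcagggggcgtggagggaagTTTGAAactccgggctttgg

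**Figure D3:**
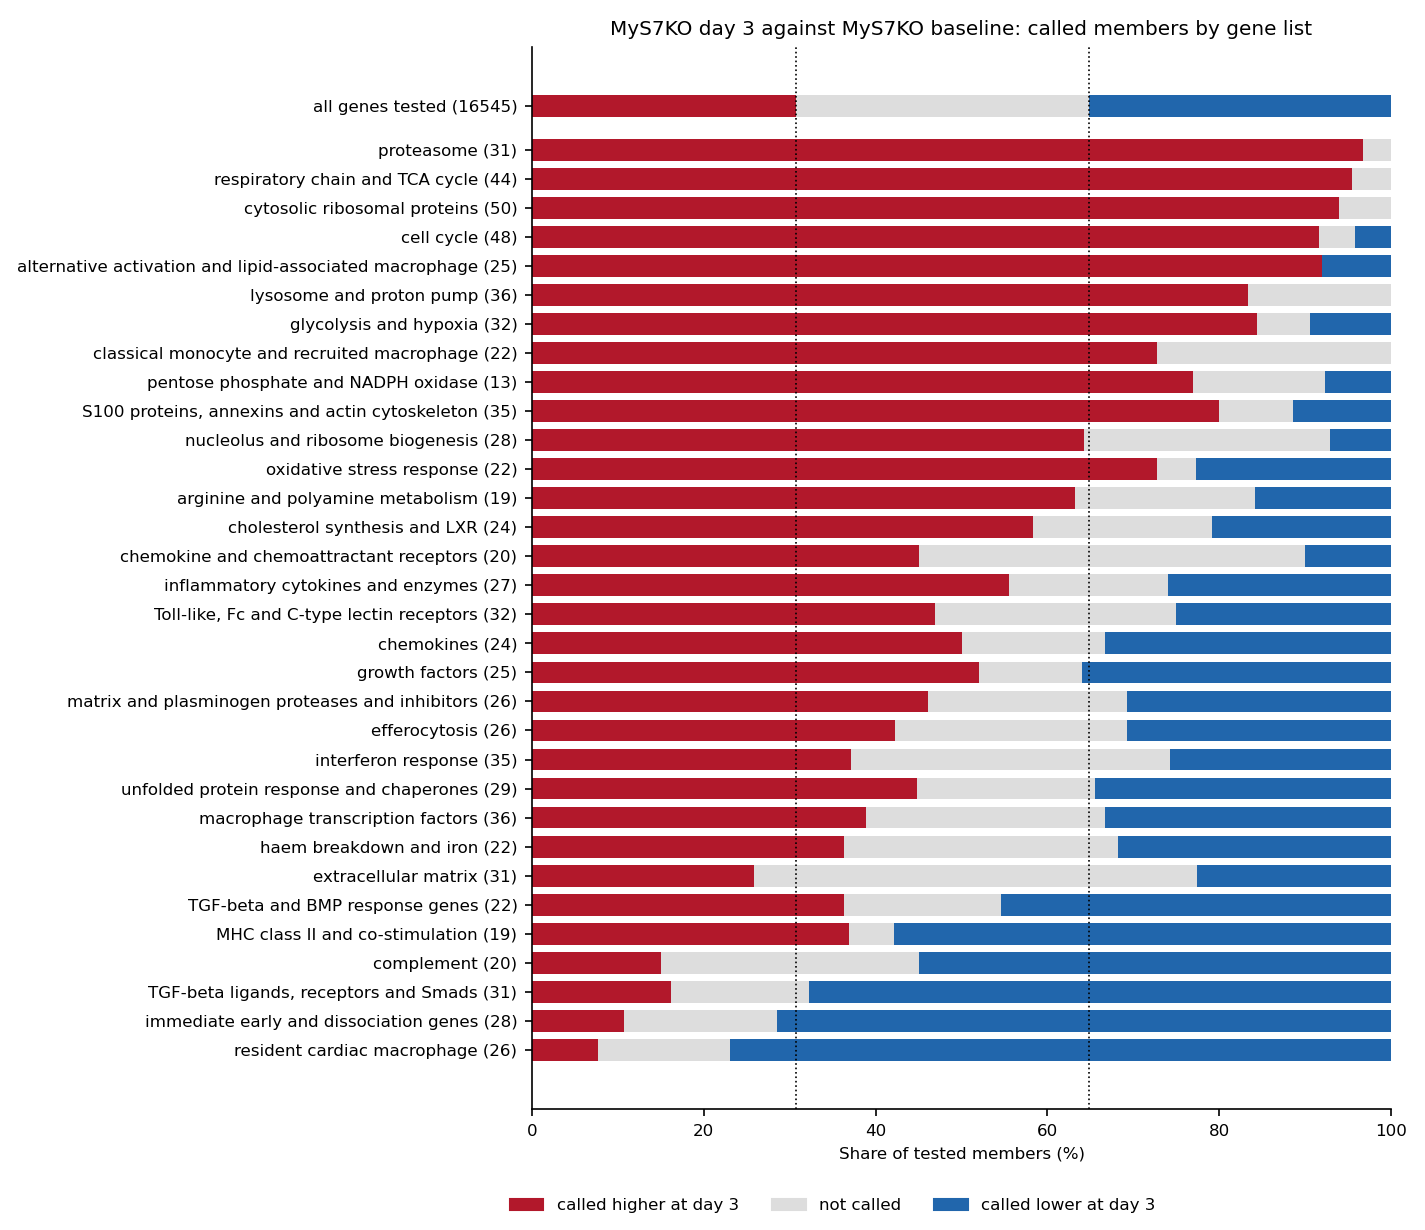
Share of the tested members (number in brackets) of 32 gene lists that were called higher (red), not called (grey) or called lower (blue) at day 3 against baseline in MyS7KO macrophages. The top bar and dotted lines give the same shares over all 16545 genes tested, 30.7% higher and 35.2% lower; the proteasome list is at the top (30 of 31 higher) and the resident cardiac macrophage list at the bottom (20 of 26 lower).

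Of 27 inflammatory cytokines and enzymes 15 rose and 7 fell (median log2 0.71). Ptgs2, the inducible cyclooxygenase of prostaglandin synthesis, had 1870.2, 1991, 1518, 2045 and 2042 CPM in MyS7KO day 3 libraries, against 129.6, 159.8 and 136 CPM in MyS7KO baseline libraries (log2 change 3.74 ± 0.26 SE, edgeR adjusted p = 1.02e-10). Il1rn, the antagonist of the interleukin 1 receptor (log2 3.18 ± 0.26), the anti-inflammatory cytokine Il10 (2.58 ± 0.32), Acod1, which makes itaconate (2.00 ± 0.50), and Il1b (1.24 ± 0.25) rose. Tnf fell (log2 -0.71 ± 0.19), as did Il15 (-1.13 ± 0.15) and Casp4, the inflammatory caspase that senses lipopolysaccharide. Casp4 had 56.9, 63.5, 55.9, 62.3 and 64.9 CPM in MyS7KO day 3 libraries, against 212, 165 and 229 CPM in MyS7KO baseline libraries (log2 change -1.73 ± 0.12 SE, edgeR adjusted p = 8.65e-11). Il6 (log2 -0.27 ± 0.41) and Nos2 (-0.83 ± 0.82) were not called. Of 24 chemokines 12 rose and 8 fell, the falls near the share over all genes tested (30.7% higher and 35.2% lower). Cxcl3 and Cxcl1 attract neutrophils through Cxcr2. Cxcl3 had 406, 348, 274, 352 and 285 CPM in MyS7KO day 3 libraries, against 13.3, 12.5 and 9.52 CPM in MyS7KO baseline libraries (log2 change 4.82 ± 0.57 SE, edgeR adjusted p = 7.09e-07). Cxcl1 averaged 777 ± 59.2 CPM at day 3 against 285 ± 8.08 CPM at baseline (log2 change 1.45 ± 0.20 SE, edgeR adjusted p = 1.73e-06). Ccl7, a ligand of Ccr2, rose (log2 1.08 ± 0.25) and Ccl2 was not called (0.35 ± 0.21). Ccl24, an eosinophil attractant of resident macrophages (-2.83 ± 0.61), Cxcl12 (-2.17 ± 0.43), Cxcl9 (-1.59 ± 0.56) and Ccl5 (-0.80 ± 0.25) fell. Without baseline replicate 1 there were 5 falls, as with no filter, and with baseline replicate 3 as the only baseline library 5 chemokines were called higher and 3 lower. Toll-like, Fc and C-type lectin receptors rose in 15 of 32 and fell in 8, beside 30.7% higher and 35.2% lower of all genes tested. The falls numbered 5 without baseline replicate 3 and on log2(FPKM + 1) with no filter. Clec4d, a receptor for microbial glycolipids, had 404, 307, 379, 398 and 403 CPM in MyS7KO day 3 libraries, against 30.4, 31.3 and 26.4 CPM in MyS7KO baseline libraries (log2 change 3.69 ± 0.23 SE, edgeR adjusted p = 2.65e-11). Clec4e (log2 3.61 ± 0.31), Trem1 (2.79 ± 0.32) and Cd14 (1.40 ± 0.16) rose as well.

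Of 35 interferon-induced genes 13 rose and 9 fell, the rises somewhat above and the falls below the shares over all genes tested (30.7% higher and 35.2% lower). The number higher was 7 without baseline replicate 3 and 6 with it as the only baseline library. Irf1, a transcription factor induced by interferon gamma, had 99.0, 106, 138, 97.2 and 113 CPM in MyS7KO day 3 libraries, against 401, 446 and 553 CPM in MyS7KO baseline libraries (log2 change -2.08 ± 0.21 SE, edgeR adjusted p = 2.62e-08). The guanylate-binding protein Gbp7 averaged 17.8 ± 2.23 CPM at day 3 against 56.1 ± 6.81 CPM at baseline (log2 change -1.66 ± 0.20 SE, edgeR adjusted p = 3.15e-07). The groups did not overlap in either gene, beside 60.8% of all genes tested with separate groups. Oas3 (log2 2.48 ± 0.39), Irf7 (1.69 ± 0.35) and Isg15 (1.38 ± 0.32), which type I interferon induces, rose. Genes of antigen presentation by MHC class II and of co-stimulation fell in 11 of 19 and rose in 7 (median log2 -0.72). Ciita, the master activator of class II genes (log2 -2.28 ± 0.19), the class II chains H2-Eb1 (-1.51 ± 0.14), H2-Aa (-1.45 ± 0.16) and H2-Ab1 (-1.08 ± 0.16), and Icosl, a ligand for the T cell co-stimulator ICOS, fell. Icosl had 29.9, 32.5, 28.7, 35.6 and 39.7 CPM in MyS7KO day 3 libraries, against 90.2, 107 and 97.2 CPM in MyS7KO baseline libraries (log2 change -1.56 ± 0.12 SE, edgeR adjusted p = 2.22e-10). Ifi30, a thiol reductase that prepares antigens in the lysosome, had 546, 659.6, 555, 549 and 575 CPM in MyS7KO day 3 libraries, against 133, 152 and 189 CPM in MyS7KO baseline libraries (log2 change 1.87 ± 0.13 SE, edgeR adjusted p = 5.36e-11). The inhibitory ligands Cd274 (1.78 ± 0.25) and Pdcd1lg2 (2.16 ± 0.49) rose with it. Complement genes fell in 11 of 20 tested and rose in 3, or 5 by limma-voom and 5 in a fit of only the groups compared. C4b, a component of the classical pathway, had 96.9, 119, 85.2, 89.8 and 75.6 CPM in MyS7KO day 3 libraries, against 512, 657 and 558 CPM in MyS7KO baseline libraries (log2 change -2.62 ± 0.21 SE, edgeR adjusted p = 1.40e-09). It is also made by stromal cells, whose markers fell beside it, and the part of such cells was not tested. The C1q subunits C1qa (-0.34 ± 0.17) and C1qb (-0.02 ± 0.15) were not called, and C3 stood at -0.03 ± 0.33.

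Within the TGF-beta pathway, 21 of 31 ligands, receptors, co-receptors and Smads fell and 5 rose (median log2 -0.69). With baseline replicate 3 as the only baseline library 12 were called lower. Among ligands and their activators Tgfb1 rose (359 ± 45.5 CPM at day 3 against 223 ± 23.4 CPM at baseline, log2 0.69 ± 0.14), as did Itgav, an integrin chain that helps to release it (log2 1.45 ± 0.16). Tgfb2 (-2.07 ± 0.53), Tgfb3 (-0.72 ± 0.26) and the latent binding proteins Ltbp1 (-2.72 ± 0.38) and Ltbp4 (-2.61 ± 0.46) fell. Both signalling receptors for TGF-beta fell, Tgfbr1 with a log2 change of -0.38 ± 0.12 and Tgfbr2 to 204 ± 16.6 CPM at day 3, against 321 ± 3.53 CPM at baseline (log2 -0.66 ± 0.10). Acvr2a, a receptor for activins, had 16.8, 13.1, 10.3, 14.2 and 12.8 CPM in MyS7KO day 3 libraries, against 29.3, 29.2 and 27.6 CPM in MyS7KO baseline libraries (log2 change -1.09 ± 0.12 SE, edgeR adjusted p = 7.74e-08). Cd109, a co-receptor that promotes the breakdown of TGF-beta receptors, had 23.2, 16.3, 18.5, 21.4 and 21.8 CPM in MyS7KO day 3 libraries, against 4.80, 4.96 and 3.87 CPM in MyS7KO baseline libraries (log2 change 2.16 ± 0.16 SE, edgeR adjusted p = 1.45e-10). Its lowest day 3 library exceeded the highest baseline library, beside 60.8% of all genes tested with separate groups. Of the signal-carrying Smads, Smad2 (log2 0.02 ± 0.09), Smad3 (0.16 ± 0.19) and Smad4 (-0.15 ± 0.08) were not called, and Smad1 (-0.50 ± 0.12) and Smad5 (-0.78 ± 0.16), which serve BMP receptors, fell. The other inhibitory Smad, Smad6 (-1.36 ± 0.27), and the ligases Smurf1 (-0.69 ± 0.10) and Smurf2 (-0.74 ± 0.10) fell, like Smad7. Of 22 genes that respond to TGF-beta or BMP, 8 rose and 10 fell, each somewhat above the share over all genes tested (30.7% higher and 35.2% lower). The BMP targets Id1 (log2 -3.10 ± 0.39) and Id3 (-1.78 ± 0.21) fell. Klf10 had 80.4, 62.4, 70.0, 73.2 and 68.3 CPM in MyS7KO day 3 libraries, against 148, 167 and 198 CPM in MyS7KO baseline libraries (log2 change -1.27 ± 0.11 SE, edgeR adjusted p = 9.34e-10). Fn1 (3.60 ± 0.37) and Tgfbi (1.55 ± 0.14), which monocyte-derived macrophages express, rose. Bmpr1a (-2.94 ± 0.33), Tgfbr3 (-2.53 ± 0.37), Eng (-1.47 ± 0.29) and Acvrl1 (-0.96 ± 0.11) are expressed by stromal or endothelial cells as well, and fell together with those cells' markers. The part of such cells in these falls was not tested. Nor was it tested for the other falls given here, among them Tgfb2, Tgfb3, Ltbp1, Ltbp4, Smad6 and Id1.

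Of the extracellular matrix genes, 8 of 31 rose and 7 fell, against 30.7% higher and 35.2% lower of all genes tested. Those that rose included Spp1, Thbs1, Fn1, the proteoglycan Vcan (log2 1.51 ± 0.44) and Tnc. Tnc had 68.3, 32.8, 49.3, 38.1 and 34.6 CPM in MyS7KO day 3 libraries, against 1.96, 1.36 and 0.991 CPM in MyS7KO baseline libraries (log2 change 4.95 ± 0.56 SE, edgeR adjusted p = 3.62e-07). Dcn (-3.56 ± 0.55) and Lum (-2.91 ± 0.50), small proteoglycans of fibroblasts, fell. The call count for falls was 13 by limma-voom and 2 with baseline replicate 3 as the only baseline library. Matrix and plasminogen proteases and their inhibitors rose in 12 of 26 and fell in 8, beside 30.7% higher and 35.2% lower of all genes tested. Mmp14, a membrane-bound collagenase, had 407, 498, 475, 418 and 419.9 CPM in MyS7KO day 3 libraries, against 39.2, 30.4 and 22.4 CPM in MyS7KO baseline libraries (log2 change 3.86 ± 0.19 SE, edgeR adjusted p = 2.38e-13). Timp1, an inhibitor of these enzymes, rose (log2 4.29 ± 0.35), and Timp3 (-3.27 ± 0.46) and Mmp2 (-2.59 ± 0.45) fell. Of 25 growth factors 13 rose and 9 fell, the falls near the 35.2% lower of all genes tested. Fewer were called higher with baseline replicate 3 as the only baseline library. Vegfa, which drives vessel growth, had 570.0, 655, 478, 555 and 466 CPM in MyS7KO day 3 libraries, against 63.4, 56.0 and 30.9 CPM in MyS7KO baseline libraries (log2 change 3.44 ± 0.25 SE, edgeR adjusted p = 1.60e-10). Sema4d, a semaphorin, averaged 339 ± 56.5 CPM at day 3 against 51.3 ± 11.6 CPM at baseline (log2 change 2.73 ± 0.18 SE, edgeR adjusted p = 1.99e-11). Nrg1, a ligand of ErbB receptors (log2 4.64 ± 0.58), Inhba, a subunit of activin A (3.25 ± 0.85), and Ereg (3.04 ± 0.69) rose. Igf1 (log2 -0.55 ± 0.18), Hbegf (-1.37 ± 0.18) and Bmp2 (-2.62 ± 0.21) fell.

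Of 26 tested genes of efferocytosis, the uptake of dying cells, 11 rose and 8 fell. The rises were somewhat above and the falls near the shares over all genes tested (30.7% higher and 35.2% lower). Pros1, protein S, which links phosphatidylserine to the receptors Mertk and Axl, had 73.2, 64.1, 65.7, 65.8 and 67.3 CPM in MyS7KO day 3 libraries, against 153, 155 and 183 CPM in MyS7KO baseline libraries (log2 change -1.28 ± 0.09 SE, edgeR adjusted p = 6.15e-11). Mertk (-0.84 ± 0.13), Axl (-1.27 ± 0.12) and the second bridging protein Gas6 (-1.04 ± 0.15) fell as well. Lrp1 (1.70 ± 0.23), the scavenger receptor Msr1 (1.51 ± 0.19) and Itgb5, a partner of integrin alpha V (1.09 ± 0.10), rose. Cholesterol and LXR genes rose in 14 of 24 tested and fell in 5, or 3 with baseline replicate 3 as the only baseline library. Soat1, which esterifies cholesterol, averaged 313 ± 35.3 CPM at day 3 against 89.6 ± 9.25 CPM at baseline (log2 change 1.81 ± 0.12 SE, edgeR adjusted p = 2.53e-11). Nr1h3, which encodes LXR alpha, rose (log2 2.05 ± 0.17). Mylip, an LXR target that degrades the LDL receptor, averaged 60.0 ± 5.24 CPM at day 3 against 258 ± 36.1 CPM at baseline (log2 change -2.11 ± 0.11 SE, edgeR adjusted p = 3.66e-13). In iron handling 8 of 22 genes rose and 7 fell, near the shares over all genes tested. Fth1 had 7958, 8949, 8889, 8268 and 9233 CPM in MyS7KO day 3 libraries, against 2122, 1939 and 1954 CPM in MyS7KO baseline libraries (log2 change 2.11 ± 0.16 SE, edgeR adjusted p = 2.56e-10). Hmox1, which breaks down haem, rose (log2 0.92 ± 0.26), and the transferrin receptor Tfrc (-0.95 ± 0.15) and ceruloplasmin Cp (-4.29 ± 0.32) fell. Oxidative stress genes rose in 16 of 22, among them Prdx6, a peroxiredoxin (219.8 ± 13.1 CPM at day 3 against 40.8 ± 1.95 CPM at baseline), the cystine importer Slc7a11 (log2 4.19 ± 0.56) and Gsto1 (1.47 ± 0.10). The metallothioneins Mt1 (-0.69 ± 0.21) and Mt2 (-1.61 ± 0.43) were among 5 that fell, a number that was 2 without baseline replicate 3 and 3 with it as the only baseline library, with no filter or without libraries of mixed sex. Of 19 arginine and polyamine genes 12 rose and 3 fell, beside 30.7% higher and 35.2% lower of all genes tested. Beside Arg1, the mitochondrial arginase Arg2 had 35.8, 36.1, 31.9, 34.3 and 36.3 CPM in MyS7KO day 3 libraries, against 3.15, 1.96 and 1.34 CPM in MyS7KO baseline libraries (log2 change 4.02 ± 0.27 SE, edgeR adjusted p = 4.79e-11). Srm, spermidine synthase, averaged 39.8 ± 3.18 CPM at day 3 against 9.40 ± 0.594 CPM at baseline (log2 change 2.08 ± 0.14 SE, edgeR adjusted p = 2.02e-11).

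In the list of unfolded protein response and chaperone genes 13 of 29 rose and 10 fell, the falls near the share over all genes tested (30.7% higher and 35.2% lower). Those that rose included genes of the endoplasmic reticulum, Sdf2l1 (log2 2.54 ± 0.28), Creld2 (2.41 ± 0.39), Hyou1 (2.1 ± 0.24) and Pdia6 (2.09 ± 0.17). Those that fell included the cytosolic heat shock genes Hspa1b and Hsp90aa1. Hspa1b had 302, 179, 354, 249.6 and 252 CPM in MyS7KO day 3 libraries, against 5147, 8667 and 5029 CPM in MyS7KO baseline libraries (log2 change -4.56 ± 0.34 SE, edgeR adjusted p = 8.58e-10). Hsp90aa1 averaged 762 ± 51.5 CPM at day 3 against 3829 ± 1003 CPM at baseline (log2 change -2.33 ± 0.13 SE, edgeR adjusted p = 2.90e-12). By FPKM Hspa1b ranked 551 among protein-coding genes at day 3 and 5 at baseline. Its near-identical neighbour Hspa1a, with which reads can be shared, moved alike (log2 -4.30 ± 0.30). Immediate early genes, which are also induced when tissue is digested, fell in 20 of 28 and rose in 3 (median log2 -1.10). Jun had 386, 338, 442, 332 and 333 CPM in MyS7KO day 3 libraries, against 2205, 3072 and 2603 CPM in MyS7KO baseline libraries (log2 change -2.84 ± 0.15 SE, edgeR adjusted p = 7.36e-13). Atf3 averaged 420.3 ± 51.0 CPM at day 3 against 2395 ± 260.1 CPM at baseline (log2 change -2.51 ± 0.11 SE, edgeR adjusted p = 8.04e-14). Fos (log2 -2.06 ± 0.23), Egr1 (-3.21 ± 0.23) and Klf2 (-3.49 ± 0.40) fell too, whereas Dusp5 rose (2.51 ± 0.14); the number higher was 5 by limma-voom and without baseline replicate 3. The labels do not give digestion times, and the part of cell isolation in these falls was not tested. Further promoter motifs were searched on both strands in the same windows. The heat shock element TTCNNGAA was present in 3 of 25 genes of the chaperone list with an entry (12%), against 9.60% of all genes with an entry and 8.41% of those tested. The AP-1 site TGANTCA was found in 0 of 24 immediate early genes, against 8.97% of all genes and 6.69% of those tested. The ZBTB33 (Kaiso) palindrome centred on CGCG was present in 5 of 38 ribosomal protein genes (13.2%), against 0.525% of all genes and 0.978% of those tested. The ETS site GGAAGTG was present in 5 of 26 proteasome genes (19.2%), against 12.5% of all genes and 16.5% of those tested. Presence or absence describes these windows only. Of 36 macrophage transcription factors 14 rose and 12 fell, near the 30.7% higher and 35.2% lower of all genes tested. Mef2c, active in resident macrophages and endothelial cells, had 78.0, 82.0, 64.3, 77.6 and 67.0 CPM in MyS7KO day 3 libraries, against 188, 173 and 223 CPM in MyS7KO baseline libraries (log2 change -1.40 ± 0.11 SE, edgeR adjusted p = 2.98e-10). Bhlhe40 (log2 1.59 ± 0.19) and Cebpb (1.21 ± 0.24) rose, and Hes1 (-2.81 ± 0.33), Cebpd (-2.59 ± 0.23) and Irf4 (-1.5 ± 0.13) fell. S100 proteins, annexins and actin regulators rose in 28 of 35 and fell in 4 (median log2 1.18). Anxa2 had 1049, 979, 1117, 976 and 1089.7 CPM in MyS7KO day 3 libraries, against 248, 241 and 244 CPM in MyS7KO baseline libraries (log2 change 2.09 ± 0.13 SE, edgeR adjusted p = 6.60e-12). S100a4 (log2 2.79 ± 0.40) and Capg (2.28 ± 0.14) rose, and S100a8 (-1.57 ± 0.64) and S100a9 (-2.33 ± 0.65), which neutrophils make in quantity, fell.

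The day 3 change was also measured in S7fl/fl macrophages, and the difference between the genotypes was tested as an interaction over all genes. In S7fl/fl 4941 genes (29.9%) rose and 5648 (34.1%) fell. EdgeR called none of 16545 genes for a difference of the change (0%), where 741 (4.48%) had an unadjusted p under 0.05. DESeq2 also called none, with 749 unadjusted. This unadjusted count was 1965 by limma-voom, 331 without libraries of mixed sex, 295 without S7fl/fl baseline replicate 2 and 1659 without S7fl/fl baseline replicate 1, and lay between these values in the other fits. The smallest adjusted p by edgeR was 0.878. The SE of the difference had a median of 0.28 on the log2 scale, so that small differences were not detectable. In 932 tested genes the estimated difference was at least 1 in size on that scale without a call, so larger differences could be missed too. Among the 24 genes with the largest changes the difference (MyS7KO minus S7fl/fl) ran from -1.38 to 1.41 on the log2 scale, with SE from 0.22 to 1.83. These genes were chosen by their change in MyS7KO, which is also part of the difference. A larger change in MyS7KO is therefore partly built in. Spp1 changed by 8.41 ± 0.37 in MyS7KO and 8.81 ± 0.37 in S7fl/fl (difference -0.40 ± 0.34). Cd163 changed by -4.81 ± 0.34 in MyS7KO and -4.09 ± 0.33 in S7fl/fl (difference -0.73 ± 0.45). Arg1 changed by 8.17 ± 0.77 in MyS7KO and 9.55 ± 0.83 in S7fl/fl (difference -1.38 ± 0.92). Cd207 changed by -7.48 ± 0.40 in MyS7KO and -8.90 ± 0.44 in S7fl/fl (difference 1.41 ± 0.77, with few counts at day 3). Smad7 changed by -1.38 ± 0.25 in MyS7KO and -0.70 ± 0.25 in S7fl/fl (difference -0.68 ± 0.36, edgeR adjusted p = 0.878). Lyz1 changed by -2.19 ± 0.22 in MyS7KO and -3.16 ± 0.23 in S7fl/fl (difference 0.97 ± 0.32, edgeR adjusted p = 0.878). Lyz2 changed by 0.13 ± 0.13 in MyS7KO and 0.15 ± 0.13 in S7fl/fl (difference -0.02 ± 0.18). The 5 lowest p-values, none of which passed (edgeR adjusted p = 0.878 for each), belonged to Prr14l (difference -0.59 ± 0.14), Proz (-1.13 ± 0.30), Wdr53 (0.95 ± 0.26), E2f2 (0.59 ± 0.17) and Tlr5 (-0.95 ± 0.28). Resident macrophage genes fell in 20 of 26 in each genotype, with medians of -2.12 in MyS7KO and -1.62 in S7fl/fl. Ribosomal protein genes rose in 47 of 50 in MyS7KO and 31 of 50 in S7fl/fl (medians 0.70 and 0.43), with no member called for a difference.

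**Figure D4:**
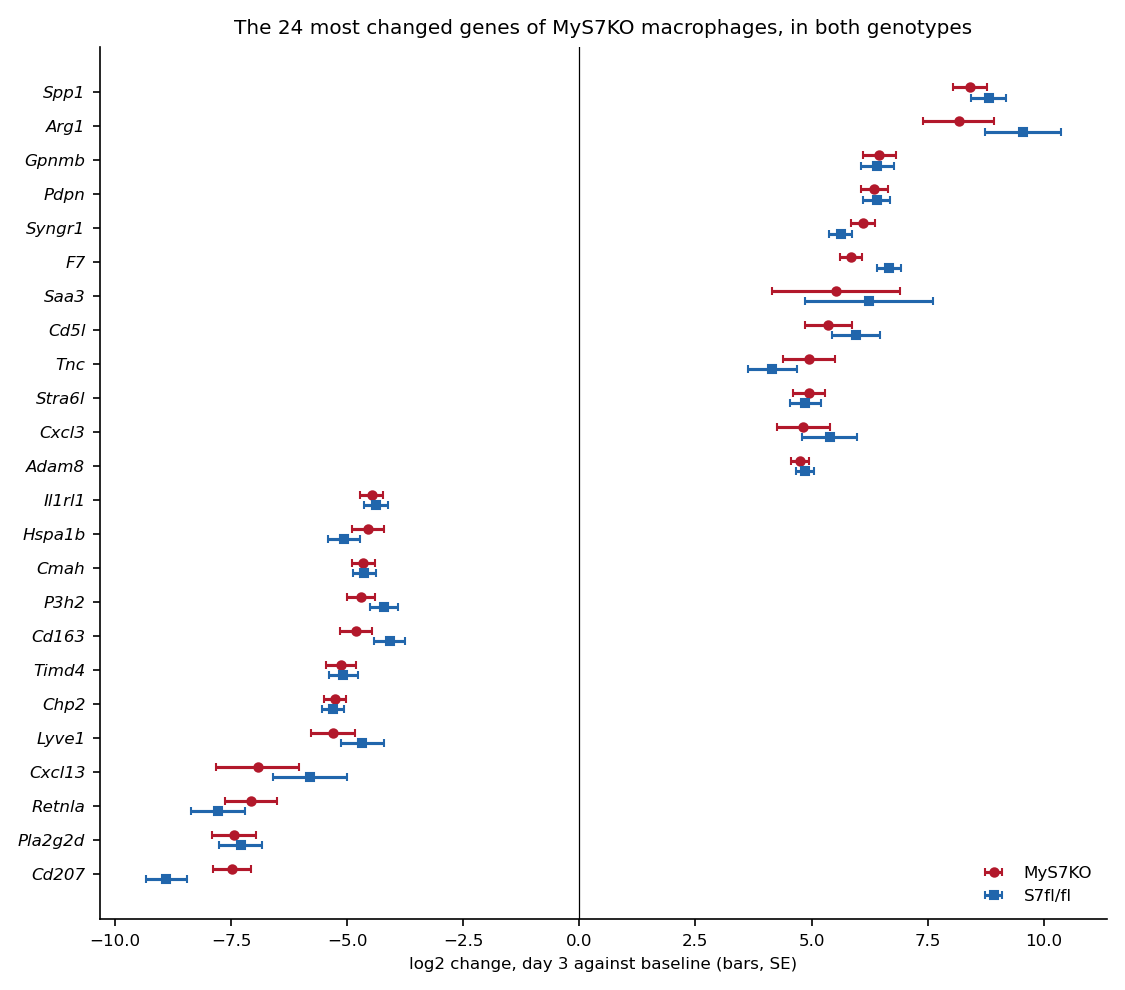
Log2 change at day 3 against baseline, with SE, of the 24 genes named for the largest changes in MyS7KO macrophages, in MyS7KO (red circles) and S7fl/fl (blue squares). No gene was called for a difference between the genotypes; differences ran from -1.38 to 1.41.

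Later course was read from MyS7KO day 7 libraries, which share the day 3 libraries with the comparison above, so that a return towards baseline is partly built into genes chosen for a large day 3 change. From day 3 to day 7 edgeR called 3396 genes higher (20.5%) and 3157 lower (19.1%). Respiratory genes were lower at day 7 than at day 3 in 41 of 44, proteasome genes in 29 of 31, cell cycle genes in 38 of 48 and glycolysis genes in 24 of 32, with 0, 0, 0 and 1 higher. Spp1 averaged 33.1 ± 7.48 CPM at baseline, 11279 ± 1056 CPM at day 3 and 3179 ± 1094 CPM at day 7 (log2 day 7 against day 3 -1.83 ± 0.23, edgeR adjusted p = 2.50e-06). Plk1 averaged 3.46 ± 0.354, 16.2 ± 1.07 and 7.40 ± 2.02 CPM at these times (log2 -1.12 ± 0.22, edgeR adjusted p = 2.35e-04). Psmd2 averaged 115 ± 5.99, 313 ± 7.96 and 174 ± 13.1 CPM (log2 -0.85 ± 0.08, edgeR adjusted p = 2.57e-08). Of lysosomal genes 8 of 36 were higher at day 7 and 9 lower. Ctsd, at 4208 ± 552 CPM at day 3 and 3395 ± 482 CPM at day 7, was not called (log2 -0.31 ± 0.14, edgeR adjusted p = 0.0900). It was called by limma-voom (log2 -0.40, adjusted p = 0.0176). Naglu was not called either (log2 0.04 ± 0.11). Of resident macrophage genes 12 of 26 were higher at day 7 than at day 3 and 3 lower. Timd4 averaged 91.5 ± 14.7 CPM at baseline, 2.60 ± 0.454 CPM at day 3 and 6.39 ± 1.62 CPM at day 7 (log2 day 7 against day 3 1.29 ± 0.31, edgeR adjusted p = 0.00244). Folr2 averaged 114 ± 17.0, 19.9 ± 2.50 and 19.8 ± 1.38 CPM, without a call (-0.01 ± 0.11). Extracellular matrix genes were higher at day 7 in 20 of 31 and lower in 4, beside fibroblast markers that summed to 2267 to 5739 CPM at day 7 and 1015 to 1759 CPM at day 3. All 4 day 7 libraries carried Xist, against 3 of 5 at day 3, so that sex and time are partly confounded.

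**Figure D5:**
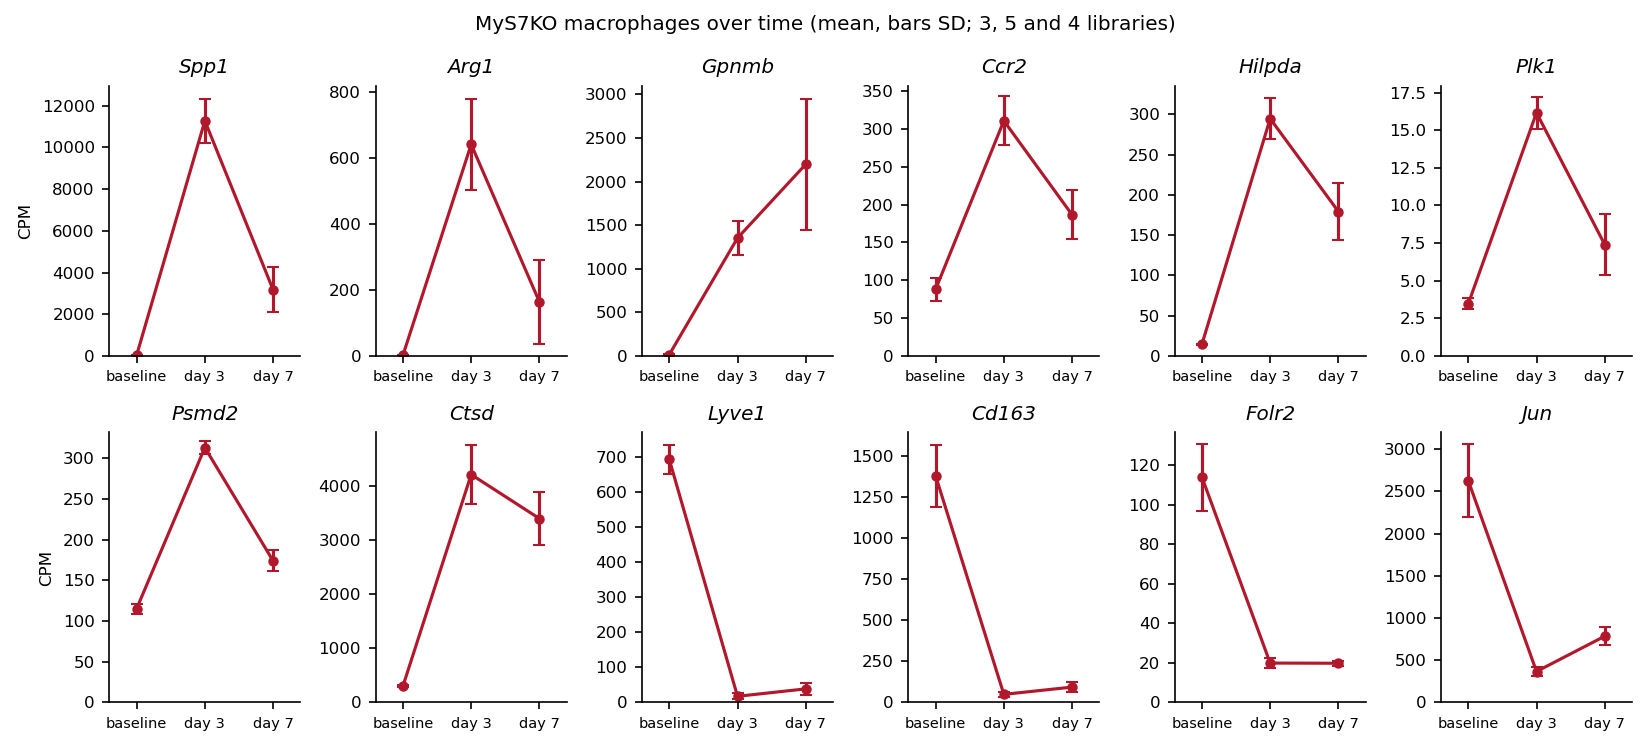
Mean CPM (linear scale from 0, bars SD) of 12 genes in MyS7KO macrophages at baseline (3 libraries), day 3 (5) and day 7 (4). Spp1, Arg1, Ccr2, Hilpda, Plk1 and Psmd2 are highest at day 3, whereas the means of Lyve1, Cd163, Folr2 and Jun are far below baseline at both later times.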

How the data were processed

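Poly(A) RNA of sorted cardiac macrophages was compared between 5 MyS7KO day 3 and 3 MyS7KO baseline libraries, with S7fl/fl and MyS7KO day 7 libraries in the same fit. Groups follow the labels. The authors deposited whole-number read counts per gene, used as they stand, and FPKM values, which equalled count over gene length times 1 constant per library. HTSeq 0.6.1, Cufflinks 2.1.1 and TopHat2 2.0.9, with mm10 and GRCm38.p6, are listed in the submitters' processing notes. Strandedness is not given in the sources used here, so reads of overlapping and antisense genes cannot be told apart.

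Counts were tested with edgeR 4.0.16 (R 4.3.3): TMM scaling, filterByExpr over the 6 groups (16545 genes kept), robust quasi-likelihood fits over all 23 libraries with 1 coefficient per group, two-sided p-values adjusted by Benjamini-Hochberg over all genes tested, called under 0.05. An SE is the log2 change over the root of F. The interaction tested the difference of the day 3 change between genotypes. The script was checked on simulated counts in which 200 genes were changed. That is far fewer than were called here, so the check does not cover scaling under so broad a change. Alternatives were RLE scaling, no filter, DESeq2 1.42.0, limma 3.58.1 (voom with quality weights, and limma-trend on log2(FPKM + 1) with and without the filter and on log2(FPKM + 0.1)), only the groups compared, a replicate block, sex as a covariate, libraries of mixed sex left out, and each library left out in turn. Leaving out baseline replicates 1 and 2 together was chosen after seeing the data.

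Genes were named by rule: Smad7, Lyz2 and Lyz1, the 12 highest and 12 lowest log2 changes of called genes whose groups did not overlap (average log2 CPM no lower than 4, no predicted genes), 2 members per list with the lowest p, and the 5 lowest p of the interaction. One gene the rule names is not reported here. Other list members were named after their values were seen, and the members and lists (32 functional, 14 of markers) were chosen with earlier results of these data known. Replicate numbers did not pair libraries: residuals of same-numbered MyS7KO day 3 and baseline libraries correlated at 0.116, -0.153 and 0.0546. Library pairs of a group differed by more than counting noise. Promoters are RefSeq windows on GRCm38.p6.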

Additional observations from a re-analysis of the deposited data

Results flagged for a closer look

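Within the 5 MyS7KO day 3 libraries, 9 of 98 values set apart a library by its gap to the next; chance alone sets apart about 1 group in 20. Day 3 replicate 4 had 165 CPM of the acute-phase gene Saa3, against 54.4 CPM in the next library, and 299 CPM of the proteasome gene Psmd2, against 314 CPM in the next. Day 3 replicate 2 stood highest for Ifi30 (659.6 CPM, next 575 CPM), Tkt (456 CPM, next 376 CPM) and the summed B cell markers (70.2 CPM, next 53.6 CPM), and lowest for Clec4d (307 CPM, next 379 CPM). Day 3 replicate 5 stood highest for Syngr1 (91.0 CPM, next 78.0 CPM) and Psmb6 (261 CPM, next 231 CPM), and lowest for Tlr5 (7.79 CPM, next 12.99 CPM). Each of these genes except Saa3 differed from baseline by more than its gap.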

How the results depend on the processing

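Between MyS7KO day 3 and baseline, 9767 to 12099 genes were called across the other tools, scalings, filters, covariates and single left-out libraries, against 10904 as reported. Every gene shared with the reported calls kept its direction. With baseline replicates 1 and 2 left out together (fewer samples), 3530 genes were called lower against 5823, Lyz2 stood at -0.0799 and Smad7 at -0.41 on the log2 scale, neither with a call. A replicate block called 10567 genes, 10393 of them shared, but the numbers did not pair the libraries. The difference between genotypes gave no call in the fits run except in limma-trend on log2(FPKM + 1) with no filter, with 8 genes higher and 7 lower; the cause was not tested. Of the genes named by rule, every direction at day 3 against baseline held in the fits other than that without both baseline libraries, where the Lyz2 sign and the Smad7 call changed; in the others only the calls of Lyz2 and Saa3 changed, with voom. Some values near 0, called in none of the fits, changed sign. The Lyz2 difference between genotypes was 0.0046 with no filter, 0.0681 with voom, 0.0028 and 0.0029 with FPKM + 1 and FPKM + 0.1, 0.0028 with FPKM + 1 and no filter, 0.0469 without libraries of mixed sex, and -0.11 to 0.12 with 1 library left out. At day 7 against day 3, Stra6l was -0.18 with voom, -0.0636 without libraries of mixed sex and -0.0347 to 0.27 with 1 library left out. Folr2 was 0.0179 with the replicate block, 0.0211 with sex as a covariate, 0.0506 without libraries of mixed sex and -0.0478 to 0.0565 with 1 library left out. Mmp14 was 0.0202 without libraries of mixed sex, Naglu -0.0101 with voom and -0.0239 to 0.10 with 1 library left out, and Syngr1 -0.20 to 0.0888 with 1 library left out. At day 7 against day 3 the calls of Cd163, Cd207, Cxcl13, Fth1, Gpnmb, Hspa1b, Lyve1, Lyz2, Rplp0, Sema4d, Smad7 and Vegfa each ended in at least 1 fit, and Cd300lf, Ctsd, Cxcl1, Hsp90aa1, Lyz1 and Retnla were called in at least 1 fit but not as reported. Depth limits genes with few counts at day 3, such as Cd207, Pla2g2d and Cxcl13.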

Other observations

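Markers of dendritic cells, which also carry CD11b in part, summed to 463 to 593 CPM at day 3 and 284 to 314 CPM at baseline, higher in every day 3 library. Xcr1, of cross-presenting cells, averaged 5.52 ± 1.64 CPM at day 3 against 1.15 ± 0.582 CPM at baseline, and the receptor Flt3 21.1 ± 1.84 CPM at day 3 against 7.28 ± 1.71 CPM at baseline. Siglech, of plasmacytoid cells, averaged 1.22 ± 0.662 CPM at day 3 against 13.8 ± 1.83 CPM at baseline and Zbtb46 13.6 ± 2.41 CPM at day 3 against 33.7 ± 10.5 CPM at baseline. All 4 were called, and 7 of 14 dendritic markers rose and 5 fell, beside 30.7% higher and 35.2% lower of all genes tested. Some abundant genes were not called. By FPKM B2m ranked 14 at day 3 and 8 at baseline, and C1qb 15 at day 3 and 9 at baseline. Cd74, the class II invariant chain, ranked 11 at day 3 and 1 at baseline and fell. By the stronger signal, 3 of the 5 MyS7KO day 3 libraries carried Xist and 2 carried Y-linked reads. Among the 3 MyS7KO baseline libraries 1 carried Xist and 2 carried Y-linked reads. In S7fl/fl mice 2 of 5 day 3 and 2 of 3 baseline libraries carried Xist. Sex was thus unbalanced in the main comparison and in the interaction. With sex as a covariate 5017 genes were called higher and 5686 lower at day 3. MyS7KO day 3 replicate 2 had 602 CPM of Xist and 5.32 CPM of Y-linked genes, and MyS7KO day 3 replicate 3 had 20.6 and 189 CPM. Each signal was scaled to its median in libraries of that sex. The lesser signal was then 2.3 and 3.95% of both together, and libraries above 2% were taken as of mixed sex.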
